A study of Ogataea angusta with 8 samples.

Results

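The 4 arrays analysed here compared RNA of xylose-grown cells with RNA of glucose-grown cells of the yeast Hansenula polymorpha in well-aerated culture. They were chosen by their titles, which begin with the aerobic xylose label, and they are 4 of the 8 arrays of the series. The other 4 arrays made the same comparison in microaerobic culture. All cultures were of strain DL-1-L, listed under the species name Ogataea angusta, and grew at 37 °C from a starting OD600 of 0.3. Aerobic cells had 50 ml of medium in 500 ml flasks on a shaker at 180 rpm, and microaerobic cells had 100 ml in 250 ml flasks at 100 rpm, so that flask, volume and shaking changed together with the oxygen supply. Each array held xylose RNA in 1 dye and glucose RNA in the other, and in each oxygen condition the xylose RNA carried Cy5 (red) on 2 arrays, cy5-1 and cy5-2, and Cy3 (green) on the other 2, cy3-1 and cy3-2. The labels do not say whether arrays stand for separate cultures or for repeat labellings of 1 extract, so the p-values below cover only the spread from array to array, which could be technical.

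Hansenula polymorpha is a methylotrophic, heat-tolerant yeast that can grow on xylose, the main pentose sugar of plant cell walls. In yeasts that use xylose, xylose reductase makes xylitol, xylitol dehydrogenase makes xylulose, and xylulokinase passes the sugar to the pentose phosphate pathway. These oxidation and reduction steps use different cofactors, so the oxygen supply matters to how a cell handles the sugar, and glucose is known in yeasts to repress genes for the use of other carbon sources. The array features carry identifiers of the array design, KH- followed by a number, and neither the deposited table nor the reference table pairs them with genes. None of the 5837 identifiers matched the 5442 genes of the reference table. The response is therefore given by feature, with 2 identifiers printed for each direction and other features given by their rank.

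Each feature has 1 deposited ratio per array. No source used here states which RNA is the numerator or what the log base is. Xylose RNA is listed as channel 1 throughout and gives the samples their titles, so a positive ratio is read as a likely higher level on xylose, and the base is taken as 2. Ratios of arrays with opposite dyes correlated across features at 0.51 to 0.56 as deposited, so no sign was turned. Of the 5837 features, 143 had no aerobic value and 43 had 2. The remaining 5651, with at least 3 aerobic values, were tested. Among these, 5515 had a value on all 4 aerobic arrays and 136 on 3 of them.

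In aerobic cells, 669 of 5651 features (11.8%) changed between the sugars, of which 347 (6.14%) rose on xylose and 322 (5.7%) fell (limma, adjusted p under 0.05). Changes were mostly small: the median log2 ratio was 0.55 among features that rose, a 1.47-fold change, and -0.45 among those that fell, a 1.36-fold change. The median over all tested features was -0.02 on the same scale. The smallest called change was 0.25, against a median standard error of 0.097. Without aerobic array cy3-1 the count of called features was 356, and without aerobic array cy3-2 it was also 356.

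The large changes leaned to one side. Of the 103 features with a mean ratio of 2-fold or more (1.82% of those tested), all of which passed the test, 76 (1.34%) rose and 27 (0.478%) fell. The rising share grew with the size of the change: it was 51.9% among all called features, 63.4% at a log2 ratio of 0.5 or more, 73.8% at 1 or more and 82.1% at 1.5 or more. At 4-fold or more, 13 features rose and 1 fell, and 1 feature, KH-1683, rose by more than 8-fold. These directions rest on the likely reading of the ratio: were glucose the numerator, the 76 and 13 would be falls and the 27 and 1 would be rises. The tails of the whole distribution were unequal too, with the lowest 1% of mean ratios at or below -0.70 and the highest 1% at or above 1.19.

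**Figure D1:**
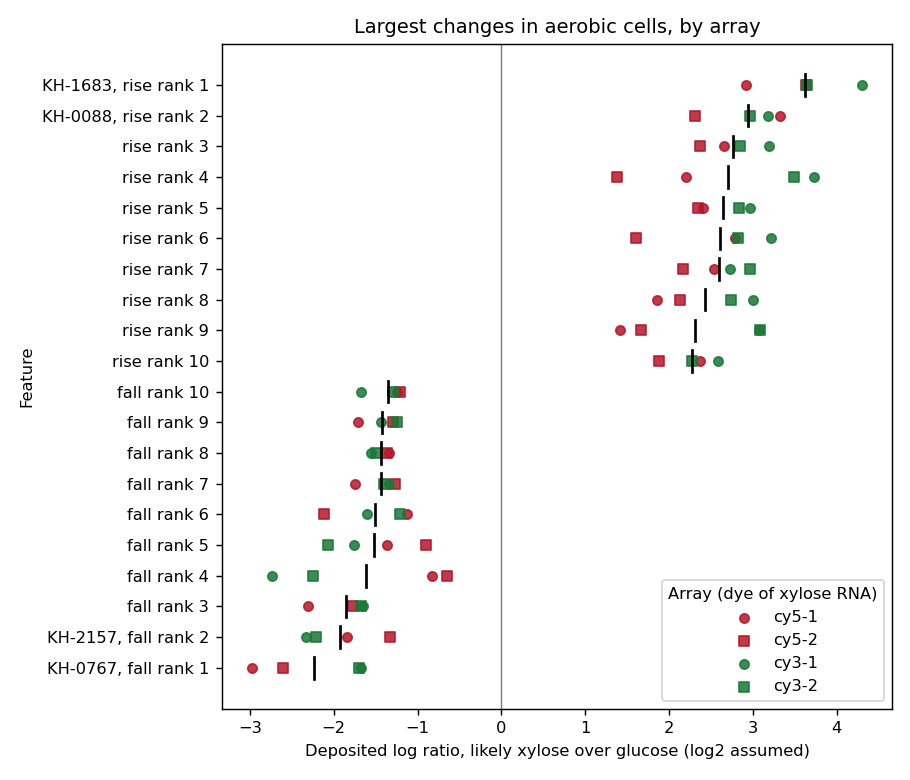
Deposited log ratio (x axis, log2 assumed, likely xylose over glucose) on each of the 4 aerobic arrays for the 10 largest rises and the 10 largest falls among called features with 4 values of 1 sign, with colour for the dye of the xylose RNA, symbol for the label number and a black bar for the mean. All values of the 10 rises lie between 1.38 and 4.30, and all values of the 10 falls between -2.97 and -0.65.

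Ranks below are among called features with all 4 values and the same sign on each. The feature with the largest rise was KH-1683. Its log2 ratios were 2.92, 3.63, 4.30 and 3.64 on arrays cy5-1, cy5-2, cy3-1 and cy3-2. It was the highest feature on 3 of the 4 arrays and the second highest on cy5-1. The mean was 3.62 ± 0.56 (SD, n = 4), a 12.3-fold higher level on xylose (limma adjusted p = 1.5e-05). Both Cy3 values, meaning those with xylose RNA in Cy3, were above both Cy5 values, by a narrow margin. Leaving out each array in turn gave means of 3.40 to 3.86.

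The second largest rise was that of KH-0088, with log2 ratios of 3.32, 2.31, 3.18 and 2.96 on the same arrays in the same order. Its lowest value was on cy5-2, and its Cy5 and Cy3 values overlapped. The mean was 2.94 ± 0.45 (SD, n = 4), or 7.69-fold (limma adjusted p = 1.3e-06). KH-1683 stayed above KH-0088 under all 17 alternative settings fixed for the 2 features.

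The rises of rank 3 to 10 had mean log2 ratios between 2.28 and 2.77, and neighbouring ranks lay closer together than the spread between arrays. The third feature was at 2.66, 2.37, 3.19 and 2.85, in the array order cy5-1, cy5-2, cy3-1 and cy3-2, and the fifth at 2.40, 2.35, 2.97 and 2.83. The SDs of these 2 features were 0.34 and 0.31. The fourth was the least steady of the 10, at 2.20, 1.38, 3.73 and 3.49, with an SD of 1.11. Both of its Cy3 values were above both of its Cy5 values, and it ranked 8 and 22 on the Cy5 arrays but 2 on both Cy3 arrays. The ninth feature showed the same split, at 1.41 and 1.67 on the Cy5 arrays against 3.07 and 3.08 on the Cy3 arrays. In all 10 of these features the mean was higher on the Cy3 arrays than on the Cy5 arrays.

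The deepest fall was that of KH-0767. Its log2 ratios were -2.97, -2.61, -1.67 and -1.70 on arrays cy5-1, cy5-2, cy3-1 and cy3-2. It was the lowest feature on both Cy5 arrays, and its Cy5 values did not overlap its Cy3 values. The mean was -2.24 ± 0.65 (SD, n = 4), a 4.72-fold lower level on xylose (limma adjusted p = 8.0e-04). The second deepest fall was that of KH-2157, with -1.84, -1.33, -2.33 and -2.21 on the same arrays. Here the Cy3 values were the deeper ones, again without overlap. The mean was -1.93 ± 0.45 (SD, n = 4), which is 3.80-fold lower on xylose (limma adjusted p = 6.5e-06). The order of KH-0767 and KH-2157 held under 15 of 17 settings and turned without aerobic array cy5-2 and on the Cy3 arrays alone.

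The falls of rank 3 to 10 had mean log2 ratios between -1.85 and -1.35. A fall with 3 values and a mean of -1.92, described below, lies between ranks 2 and 3 but is not ranked. The third was at -2.31, -1.77, -1.65 and -1.68 on cy5-1, cy5-2, cy3-1 and cy3-2. The eighth was the steadiest of the 20 features shown, at -1.34, -1.36, -1.55 and -1.50, with an SD of 0.10. The fourth was the least steady of the falls. It was at -0.83 and -0.65 on the Cy5 arrays and at -2.74 and -2.25 on the Cy3 arrays, which made it the lowest feature on both Cy3 arrays but number 62 and number 124 from the bottom on the Cy5 arrays. Among the 10 falls, 5 were deeper on the Cy3 arrays and 5 on the Cy5 arrays.

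Most called features kept 1 sign on every array. The call by itself favours this, since it weighs the mean of these ratios against their spread. Of the 658 called features with all 4 values, 639 (97.1%) had the same sign on all 4, and 19 did not. The largest of these 19 was at 0.19, -0.06, 1.77 and 1.41 on cy5-1, cy5-2, cy3-1 and cy3-2, a mean of 0.83 that rests on the Cy3 arrays. Among all 5515 features with 4 values, 1699 (30.8%) had 1 sign throughout, called or not, 761 of them positive and 938 negative. Features of 1 sign were thus more often negative while the large ones were more often positive. The medians of the aerobic arrays, -0.02, 0, -0.03 and -0.03, were not centred here, and their part in the 761 and 938 was not tested. Of the 136 features with 3 values, 11 (8.09%) were called, against 11.8% of all tested features. The largest change among those 11 was a fall with -2.76, -2 and -0.99 on cy5-1, cy5-2 and cy3-1. A mean over 3 arrays is not balanced over the dyes.

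**Figure D2:**
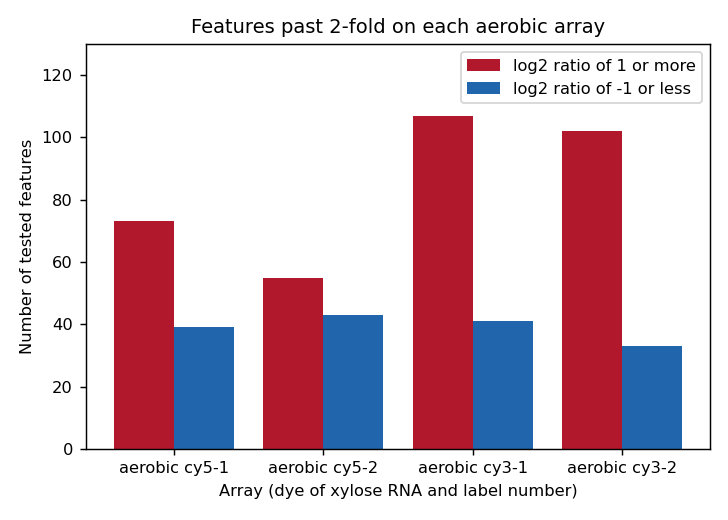
Number of tested features (y axis) with a log2 ratio of 1 or more (red) or -1 or less (blue) on each of the 4 aerobic arrays (x axis, named by xylose dye and label number). Positive ratios of this size number 73 and 55 on the Cy5 arrays and 107 and 102 on the Cy3 arrays, while negative ones stay between 33 and 43.

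The excess of large positive ratios differed between the dye orientations. On arrays cy5-1 and cy5-2, 73 and 55 features had a log2 ratio of 1 or more. On arrays cy3-1 and cy3-2 the numbers were 107 and 102. The numbers at -1 or less were 39, 43, 41 and 33 in the same order and did not part by dye. The highest single ratio was 4.30, on cy3-1, and the lowest was -2.97, on cy5-1. The split was not particular to aerobic cells. On the microaerobic arrays, 93 and 54 features were at 1 or more on the Cy5 arrays, and 123 and 120 on the Cy3 arrays. Those at -1 or less numbered 57, 60, 43 and 55 in the same order.

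The same features, followed across the dyes, gave the same picture. Of the 75 features that rose by 2-fold or more and had all 4 values, 51 (68%) had both Cy3 values above both Cy5 values, and 6 (8%) had both below. Over all 5515 features with 4 values these shares were 19.1% and 19.6%. The median log2 ratio of the 75 was 1.21 on the Cy5 arrays and 1.81 on the Cy3 arrays. Of the 25 features that fell by 2-fold or more, 9 had both Cy3 values above and 10 had both below, and the medians were -1.45 and -1.34. All 75 rises and all 25 falls had means of the same sign in both orientations, which the call by itself favours. Which part of the difference is dye, label or array was not tested. For features with all 4 values, the mean holds both orientations equally.

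**Figure D3:**
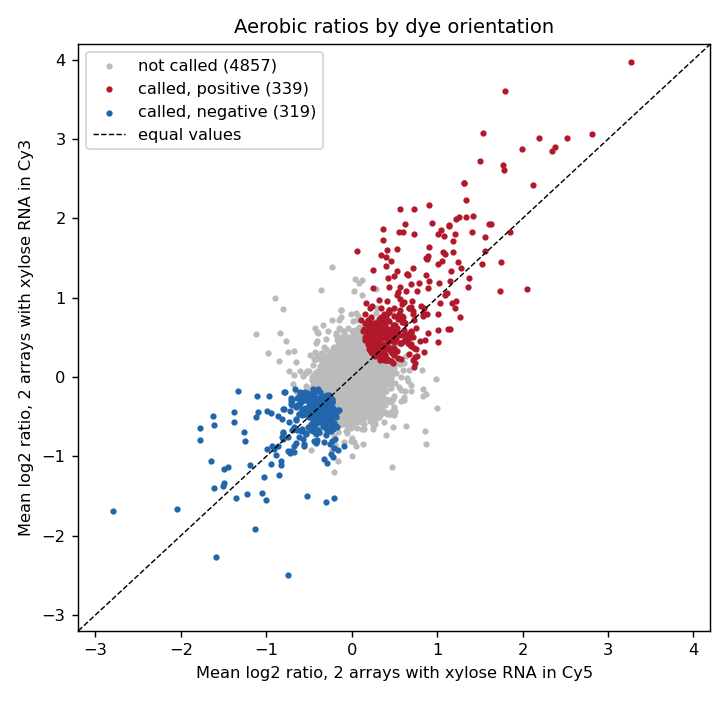
Mean log2 ratio of each feature on the 2 aerobic arrays with xylose RNA in Cy3 (y axis) against that on the 2 arrays with xylose RNA in Cy5 (x axis), with called features in red (339 positive) and blue (319 negative). All called features lie in the quadrants of equal sign, which the call by itself favours. Most large positive ones lie above the dashed line of equal values.

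A dye term fitted on the 4 aerobic arrays alone was called for 123 of 5651 features (2.18%, limma, adjusted p under 0.05), with higher ratios on the Cy5 arrays for 48 and lower ones for 75. Its median size among them was 0.99 on the log2 scale. For the sugars, 48 of the 123 were also called, against 669 of all 5651 features (11.8%). The arrays did not agree equally well with each other. The Cy3 arrays correlated at 0.82 across 5620 features, and the Cy5 arrays at 0.53 across 5546, a value within the 0.51 to 0.56 of arrays with opposite dyes. The ratios of the Cy3 arrays differed by a median of 0.16 per feature, against 0.20 to 0.22 for the other 5 pairs. The test on the Cy3 arrays of both oxygen conditions alone called 1352 features, and that on the Cy5 arrays alone 299.

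In microaerobic cells, most large aerobic changes were also seen. Both conditions were tested in 1 fit over all 8 arrays, in which 1154 of 5617 features (20.5%) were called in microaerobic cells. Of the 99 features with an aerobic 2-fold change or more and enough microaerobic values, 85 were called in microaerobic cells with the same sign. In 5 the microaerobic mean had the opposite sign, called or not, and all 5 fell in aerobic cells. Their means of 0.985 and 0.62 were called in microaerobic cells (limma adjusted p = 1.5e-04 and 0.044). Those of 0.355, 0.16 and 0.0375 were not (limma adjusted p = 0.28, 0.58 and 0.88). The 73 rises had a median log2 ratio of 1.41 in aerobic and 1.23 in microaerobic cells, and the 26 falls one of -1.31 and -1.02. These features were chosen on their aerobic ratios, which by itself favours larger aerobic values, so no test is given. Deviations of arrays that share dye and number correlated between the conditions, so the conditions are not independent of each other.

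The difference between the conditions was itself called for 55 of 5617 features (0.979%), with the aerobic ratio higher for 19 (0.338%) and lower for 36 (0.641%). This fit does not model the pairing of arrays that share dye and number. With dye and label number as a replicate block the count was 101. It was 30 without microaerobic array cy5-1, 32 without microaerobic array cy5-2, 36 without aerobic array cy3-1 and 36 without aerobic array cy3-2. Of the 660 features called in aerobic cells and tested for the difference, 36 passed (5.45%). Of these, 17 fell in aerobic cells with the lower aerobic ratio, 8 rose with the higher one, 6 fell with the higher one and 5 rose with the lower one. The 660 were chosen on their aerobic ratios, which also enter the difference. That choice by itself favours called differences with the larger aerobic change, so no comparison with the share over all features is drawn. Of the 228 features called in aerobic but not in microaerobic cells, 14 passed the test of the difference, and these too were chosen on ratios that enter it.

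**Figure D4:**
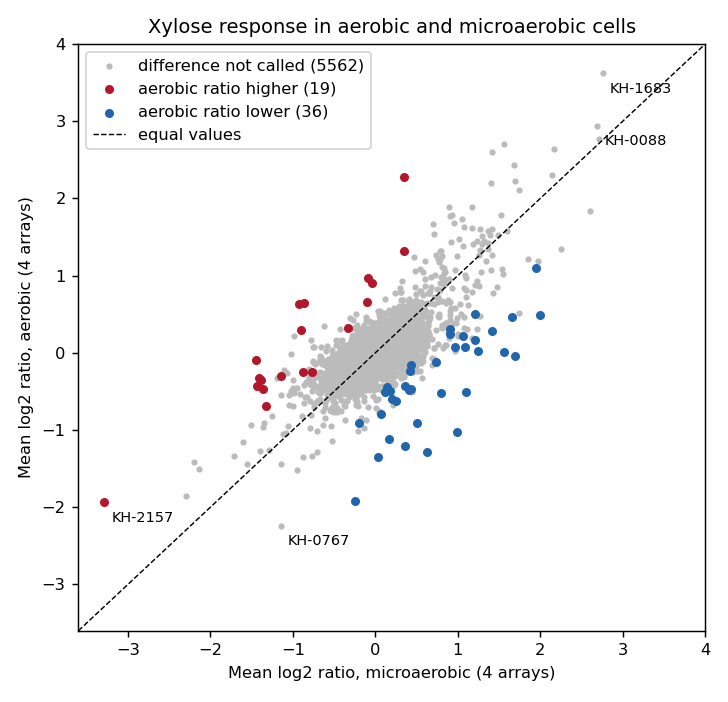
Mean log2 ratio in aerobic cells (y axis) against that in microaerobic cells (x axis) for the 5617 features tested for the difference, with called differences in red (19 with the higher aerobic ratio) and blue (36 with the lower one). KH-1683, KH-0088, KH-0767 and KH-2157 are labelled; of these, KH-2157 was called.

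Of the 99 tested features with an aerobic change of 2-fold or more, 10 passed the test of the difference. Over all 5617 tested features 55 (0.979%) passed. The 99 were likewise chosen on their aerobic ratios, so the shares are not compared. The rise of rank 10 was one of the 10. In aerobic cells its log2 ratios were 2.37, 1.88, 2.58 and 2.27 on cy5-1, cy5-2, cy3-1 and cy3-2, and in microaerobic cells they were -0.14, 0.49, 0.52 and 0.54. The sets did not overlap, and the aerobic mean was the higher one by 1.92 ± 0.18 (SE, limma adjusted p = 2.8e-04). A smaller rise, at 1.32, 1.43, 1.47 and 1.03 in aerobic and 0.25, 0.13, 0.60 and 0.42 in microaerobic cells, differed by 0.96 ± 0.14 (SE, limma adjusted p = 0.0058). The remaining rise of these 3 was larger in microaerobic cells: it was at 0.90, 1.14, 1.08 and 1.28 in aerobic and 2.42, 1.81, 1.64 and 1.90 in microaerobic cells.

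The other 7 features fell in aerobic cells. In 5 of these the microaerobic mean was positive. The highest such mean was that of a feature at -1.24, -1.26, -0.99 and -0.62 in aerobic and 0.83, 0.79, 0.94 and 1.38 in microaerobic cells. Its difference was -2.01 ± 0.17 (SE, limma adjusted p = 2.3e-04). Another of the 5 was at -1.26, -2.03, -1.08 and -1.03 in aerobic and 0.20, 0.04, -0.09 and 0.00 in microaerobic cells. Here the microaerobic mean was not called, and the difference was -1.39 ± 0.19 (SE, limma adjusted p = 0.0043). Another was at -1.82, -1.73, -0.72 and -0.87 in aerobic and 1.35, 0.40, 0.29 and 0.45 in microaerobic cells. Its aerobic values parted by dye, the Cy5 ones being the deeper, but both dye pairs lay below all microaerobic values.

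KH-2157 was also among the 7, and its fall was the shallower one in aerobic cells. Its microaerobic values were -3.44, -3.55, -3.05 and -3.12, all below its aerobic values. The difference of 1.36 ± 0.20 (SE, limma adjusted p = 0.0061) was 1.91 on the Cy5 arrays and 0.82 on the Cy3 arrays. It did not pass after quantile normalization, at 0.91 (limma adjusted p = 0.074). With dye and label number as a replicate block it passed (limma adjusted p = 0.026). For KH-1683 and KH-0088 the difference was 0.87 ± 0.44 and 0.26 ± 0.23 (SE), with limma adjusted p-values of 0.48 and 0.74, neither a call. With same-number arrays averaged, the difference of KH-1683 passed (limma adjusted p = 0.0017, against 0.0017 to 0.76 over the 17 settings planned for differences).

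KH-0767 showed a difference between the oxygen conditions that depended on the dye. Its microaerobic log2 ratios were -0.27, -0.14, -2.10 and -2.08 on cy5-1, cy5-2, cy3-1 and cy3-2. On the Cy5 arrays, the aerobic mean of -2.79 lay far below the microaerobic mean of -0.205. On the Cy3 arrays, the aerobic mean of -1.69 lay above the microaerobic one of -2.09. The difference over all arrays was -1.09 ± 0.46 (SE) and did not pass (limma adjusted p = 0.35). It passed with same-number arrays averaged (limma adjusted p = 1.6e-04, against 1.6e-04 to 0.63 over the 17 settings planned for differences). A test of the dye by oxygen interaction, chosen after these values had been seen, gave -2.99 ± 0.23 for KH-0767 (SE, limma adjusted p = 4.9e-06). It was called for 98 of the 5355 features with all 8 values (1.83%), and for 26 of the 645 of them that were called in aerobic cells.

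For 9 tested features there was an aerobic but no microaerobic value, and 4 of the 9 were called. Over all 5651 tested features 669 (11.8%) were called, and the 9 were not tested as a group. The rise of rank 7, at 2.53, 2.17, 2.73 and 2.96 on cy5-1, cy5-2, cy3-1 and cy3-2, was the largest of these 4. The fall of rank 4, whose values parted by dye as given above, was another. One more rose with 0.60, 0.85, 2.16 and 2.09, and the fourth rose with 0.42, 0.59 and 0.93 on cy5-1, cy3-1 and cy3-2. Whether these 4 respond in microaerobic cells cannot be given from the table.

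**Figure D5:**
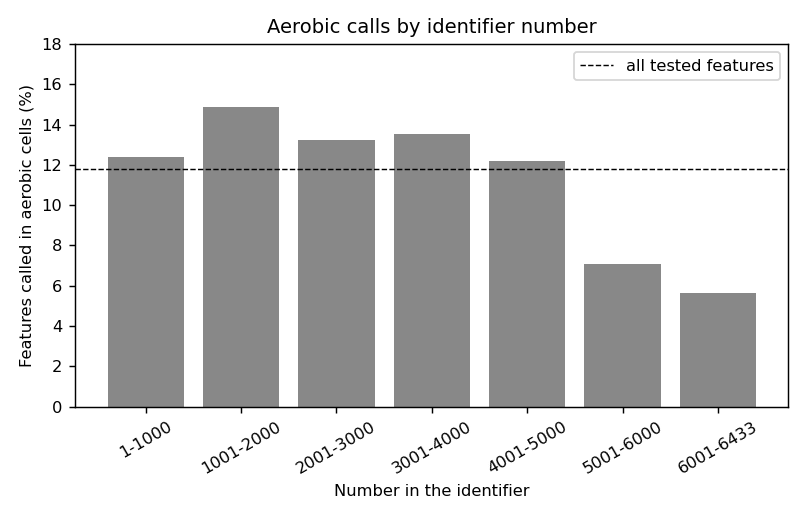
Percent of tested features called in aerobic cells (y axis) by the number in the identifier (x axis, blocks of up to 1000), with the share over all tested features as a dashed line at 11.8%. The first 5 blocks lie between 12.2% and 14.9%, and the last 2 at 7.08% and 5.66%.

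The aerobic response was not spread evenly over the identifiers. The share of called features was 12.4%, 14.9%, 13.2%, 13.6% and 12.2% in the first 5 blocks of identifiers, against 11.8% over all features. It was 7.08% of 876 features with numbers from 5001 to 6000, and 5.66% of 371 from 6001 to 6433. The SD of the mean ratio over features fell likewise, from 0.37 among numbers 1001 to 2000 to 0.22 in both of the last blocks, while the median SD between arrays was 0.16 to 0.20 in every block. In microaerobic cells the SD of the mean ratio was 0.38 among numbers 1001 to 2000, and 0.25 and 0.27 in the last blocks. Features with consecutive numbers did not resemble each other, with a correlation of 0.0017 across 5158 such pairs. Of the 85 pairs in which both features were called, 44 changed in the same direction. What the numbers stand for is not given in the sources used here.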

How the data were processed

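Relative RNA levels were read from the authors' deposited log ratios, taken as log2, 1 for each feature on each of 8 two-colour arrays. Not given in the sources used here are the log base, scanner, background correction and normalization. Per the labels' protocols, cDNA was made from 30 µg of total RNA with an oligo dT primer. The deposited values have 2 decimals, and array medians lie between -0.03 and 0. Dim or saturated spots are not marked, since intensities were not analysed here, and the number of arrays limits the precision.

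Ratios were used as deposited. The row named _ and features with under 3 aerobic values were left out. One limma 3.58.1 fit (R 4.3.3, lmFit and eBayes) over all 8 arrays had a coefficient per oxygen condition. It had no term for the pairing of arrays given below. The aerobic coefficient was tested against 0, and its difference from the microaerobic coefficient over features with 3 or more values per condition. Benjamini-Hochberg adjustment ran over all tested features, with a call at 0.05. The fit was tested on simulated data with independent noise per array. That simulation held no dye effect and no pairing of arrays, so it does not cover them. The members and lists were chosen with earlier results of these data known. Features were ranked among those called with 4 values of 1 sign, and identifiers are printed for the 2 largest rises and 2 largest falls.

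Deviations from the condition means of arrays that share dye and number correlated between conditions at 0.24, 0.21, 0.34 and 0.29 (cy5-1, cy5-2, cy3-1 and cy3-2), above the bound of 0.1 for pairing, and this pairing comes from the data and the shared numbers in the titles. Alternatives were a dye term, the aerobic arrays alone, each dye alone, centring, quantile normalization, other minimums of values, robust moderation, replicate blocks, averaged arrays and leaving out each array. Aerobic ratios and differences each had 17 of these, not the same ones. Fits of the aerobic arrays alone or of each dye alone gave no difference. Microaerobic arrays were left out for differences only.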

Additional observations from a re-analysis of the deposited data

Results flagged for a closer look

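In microaerobic cells, the rise of aerobic rank 10 had 1 array apart from the other 3, with a log2 ratio of -0.14 on cy5-1 against 0.49, 0.52 and 0.54. A gap of this kind turns up by chance in about 1 of 20 groups.

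The response to xylose differed between the oxygen conditions for 55 features (limma, adjusted p under 0.05). For the 10 of them with an aerobic change of 2-fold or more, the differences, aerobic minus microaerobic on the log2 scale, were -2.01, 1.92, -1.91, -1.67, -1.57, -1.39, 1.36, -1.27, 0.96 and -0.84, in order of size. The value of 1.36 is that of KH-2157. The feature at -1.67 has 3 aerobic values and lacks that of cy3-2.

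For KH-0767 the difference between conditions was lower by 2.99 on the Cy5 arrays than on the Cy3 arrays, a value of -2.99 for Cy5 minus Cy3 (limma adjusted p = 4.9e-06). For KH-2157 it was 1.10 ± 0.25 higher on the Cy5 arrays (SE, limma adjusted p = 0.035). Both tests were chosen after the values had been seen, and no cause was tested.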

How the results depend on the processing

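The aerobic ratios of KH-1683, KH-0088, KH-0767 and KH-2157 kept their direction and passed the limma test under all 17 settings planned for aerobic ratios, with adjusted p-values up to 0.0061. The number of features called at 2-fold or more was 90 to 131 under these settings, against 103. The count of all called features depended on the model. Against 669 it was 972 with a dye term, 920 with dye and label number as a replicate block, 1273 with label number as a random block (consensus correlation -0.33), 1099 with same-number arrays averaged, 299 on the Cy5 arrays, 1352 on the Cy3 arrays, and 356 to 607 with 1 aerobic array left out. All 669 features were among the 972, and 653 of them among the 920. The 4 aerobic arrays alone called 641 features, of which 558 were among the 669. Of the 669, 252 were called on the Cy5 arrays and 587 on the Cy3 arrays. Without aerobic arrays cy5-1, cy5-2, cy3-1 and cy3-2 in turn, 475, 505, 350 and 352 of the 669 were called. Median centring gave 385 rises and 271 falls, and the Cy5 arrays 171 and 128. Falls were more frequent with a dye term (482 rises and 490 falls) and with the random block (605 and 668). The same held with same-number arrays averaged (538 and 561) and on the Cy3 arrays (650 and 702). The more frequent direction among all called features thus depended on the setting. The count for the difference, 55, was 172 with a dye term, 101 with the replicate block, 277 with the random block, 332 with same-number arrays averaged, 30 to 50 with 1 array left out and 21 without both cy5-2 arrays, a setting chosen after seeing the data. Averaging same-number arrays let the differences of KH-1683 (0.865) and KH-0767 (-1.09) pass, and quantile normalization ended the call of KH-2157 (0.91). The cause was not tested.

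With signs turned where the xylose RNA carried Cy3, also chosen after seeing the data, limma called 2 features in aerobic cells, 0 of them at 2-fold or more, and 0 for the difference (220 and 142 at an unadjusted p under 0.05 in aerobic cells and for the difference). KH-1683, KH-0088, KH-0767 and KH-2157 were then at -0.35, -0.13, -0.55 and 0.34, and the difference of KH-2157 was 0.55, none of which passed. By construction, a response shared by all arrays becomes spread between them once signs are turned. Signal over background was not analysed here, so what it limits is unknown.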
